A study of Mus musculus with 20 samples.

Results

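The T cell and cytotoxic lymphocyte genes described here are 38 genes named by symbol: chains of the T cell receptor and its CD3 complex, co-receptors, proximal signalling proteins, receptors for cytokines and costimulation, cytotoxic effectors, NK cell receptors and lineage transcription factors. All 38 symbols were found among the 32285 genes of the deposited count matrix, and the rule takes them by name and not by a measured value. The list was drawn up with earlier results of these data known. They were followed in 20 tumours of B16F10, a transplantable melanoma line of C57BL/6 origin, grown in immunocompetent, wild type C57BL/6 mice. The groups were propafenone with anti-PD-1 (called the combination), propafenone, anti-PD-1 and IgG, with 5 tumours each, and all 20 tumours carried the same implanted line. Injections were intraperitoneal and began at a tumour size near 100 mm3, and tumours were excised on day 16. Whether the propafenone tumours also received IgG, and whether each tumour came from a separate animal, is not stated in the labels, so p-values measure the spread between these tumours. Propafenone is a sodium channel blocker used against cardiac arrhythmia, and anti-PD-1 antibodies block PD-1, a receptor that restrains activated T cells.

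T cells recognise peptides through an antigen receptor of alpha and beta chains, which signals through the CD3 chains and the kinases Lck and Zap70. CD8 T cells and NK cells kill by releasing perforin, which opens membranes, and granzymes, proteases that enter the target. In melanoma these cells are the intended effectors of PD-1 blockade, and B16F10 tumours are known for sparse infiltration by them and a poor response to PD-1 blockade alone.

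Expression was measured as estimated read counts per gene, which summed to between 55.985 and 64.515 M (M, 1000000) per tumour. CPM below are counts scaled to a common total of 1000000 with TMM factors, and TPM is the authors' abundance per transcript length. Genes of the melanocyte lineage, the label check for the tumour, summed to between 13400 and 21600 CPM. The 38 genes together took between 0.00151% and 0.00671% of the counts of a tumour. In 5 tumours Hbb-bs, a haemoglobin gene of red blood cells, exceeded 1000 CPM: propafenone 4 and 5, anti-PD-1 2, and IgG 4 and 5. Tumour anti-PD-1 2 also had the lowest count total and 15 of the 38 genes at 0. Tumours are bulk samples, so fewer cells of a type and less RNA per cell cannot be told apart in any value below.

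Most of the 38 genes were scarce. Over all 20 tumours, 32 of them had a median under 1 TPM, and 24 were at 0 in at least 1 tumour. Lck, a kinase that starts T cell receptor signalling, had the highest median level, 9.6 TPM, with a range of 5.14 to 17.1 TPM. Il2rg, the common gamma chain of several interleukin receptors, followed with a median level of 7.95 TPM and a range of 3.51 to 18.7 TPM. The next levels were a median of 1.89 TPM for Gzmb (granzyme B), 1.53 TPM for Trbc2, 1.46 TPM for Trac and 1.11 TPM for Nkg7, a protein of cytotoxic granules. The ranges of these 4 neighbours overlap across most of their width, so their order is not resolved. The antigen receptor subunit Cd3e, shared by all T cell receptors, had a median level of 0.352 TPM, against 0.442 TPM for Cd8a and 0.313 TPM for Cd4. At the low end Ncr1, an activating receptor of NK cells, was at 0 in 13 of 20 tumours, Gzmk in 9, Tbx21 and Ifng in 6 each and Gzma in 5. A count of 0 allows up to 3 counts, or 0.0445 to 0.0576 CPM depending on the tumour, for counting error only and taking each count as 1 fragment. Low counts pile up at 4 and 8, so several counts may stand for 1 fragment, and the limit is then higher by an amount that is not known.

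**Figure D1:**
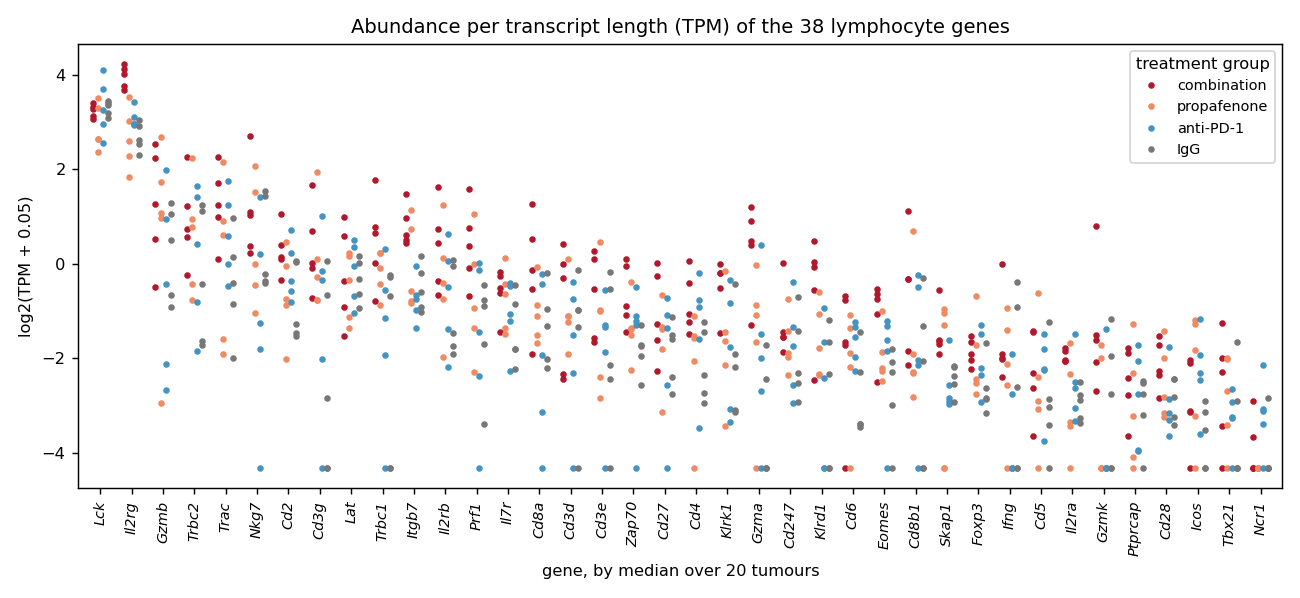
The authors' TPM of each of the 38 genes (horizontal axis, ordered by the median over 20 tumours) on a log2(TPM + 0.05) axis, with 1 point per tumour coloured by treatment group; the lowest row of points is TPM 0. Lck and Il2rg lie above the other genes, and the combination tumours are the highest points for Il2rg but not for Lck.

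In combination tumours against IgG tumours nearly all of these genes had higher fitted levels, while few passed the test. Of the 38 genes, 36 passed the filter on low counts, and all but Lck of these 36 had a higher fitted level in combination tumours than in IgG tumours. Their median log2 fold change was 1.11, beside -0.012 over all 15875 genes tested, of which 48.2% were higher. Fitted without the filter, all 38 genes had a median of 1.04. Only 2 of 36 passed edgeR's quasi-likelihood test at a Benjamini-Hochberg adjusted p under 0.05, Il2rg and Gzma, both higher. Of all genes tested, 4.88% passed in either direction and 2.24% passed as higher. With 2 calls among 36 members, the members' share is too uncertain to be set apart from this background. DESeq2 called Il2rg, Gzma and Itgb7, and limma on voom values Il2rg and Gzma. The shares of all genes that DESeq2 and limma called are not reported here, so these counts have no background beside them. At an unadjusted p under 0.05 there were 8 members, all higher, beside 10.1% of all genes that were higher at that p and 23.6% in either direction. Combination tumours had the highest mean CPM of the 4 groups for 32 of the 38 genes, beside 30.7% of all genes tested, and IgG tumours the lowest mean for 22 genes, beside 21.8% of all genes tested.

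Il2rg rose in combination tumours. This chain is needed for signalling by the receptors of interleukins that sustain T cells and NK cells, and B cells and myeloid cells carry it too. It had 14.3, 10.3, 12.3, 9.67 and 12.5 CPM in combination tumours, 4.69, 6.09, 2.75, 9.14 and 3.8 CPM in propafenone tumours, 5.86, 7.13, 7.18, 5.89 and 8.48 CPM in anti-PD-1 tumours, and 4.53, 4.86, 3.72, 6.74 and 6.89 CPM in IgG tumours. Every combination tumour lay above every tumour of the other 3 groups, which overlap each other. The mean was 11.8 ± 1.88 CPM in combination tumours and 5.35 ± 1.4 CPM in IgG tumours (SD, n = 5 each). The log2 fold change was 1.14 ± 0.25 (SE), or 2.21-fold, with an adjusted p of 0.0211 by edgeR's quasi-likelihood test. Without combination tumour 5 the adjusted p was 0.0601 and without IgG tumour 3 it was 0.0695, with log2 fold changes of 1.12 and 1.04.

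Gzma rose as well, from very few reads. It encodes granzyme A, a protease of killer cell granules that is abundant in NK cells and activated CD8 T cells. It had 0.549, 0.174, 0.761, 0.516 and 0.875 CPM in combination tumours, 0.127, 0.409, 0, 0.239 and 0.212 CPM in propafenone tumours, 0.16, 0, 0.0665, 0.0946 and 0.548 CPM in anti-PD-1 tumours, and 0, 0.0807, 0, 0.136 and 0 CPM in IgG tumours. All 5 combination tumours lay above all 5 IgG tumours, and 3 propafenone tumours and 1 anti-PD-1 tumour lay within the combination range. The summed counts were 186 in the 5 combination tumours and 13 in the 5 IgG tumours. The log2 fold change against IgG was 3.66 ± 1.05 (SE), with an adjusted p of 0.0486 by edgeR's quasi-likelihood test. This call lay at the edge of the threshold: it was lost in 14 of 19 other settings, among them every fit that left out 1 tumour except IgG 4, where the adjusted p ran up to 0.124. Over these fits its log2 fold change ran from 3.35 to 4.68, the highest without IgG tumour 4. The call was also lost without the 5 tumours rich in Hbb-bs, with an adjusted p of 0.0591, where Il2rg kept its call at 0.00641. Granzyme genes resemble each other, and how the counting split reads among them is not given in the sources used here.

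**Figure D2:**
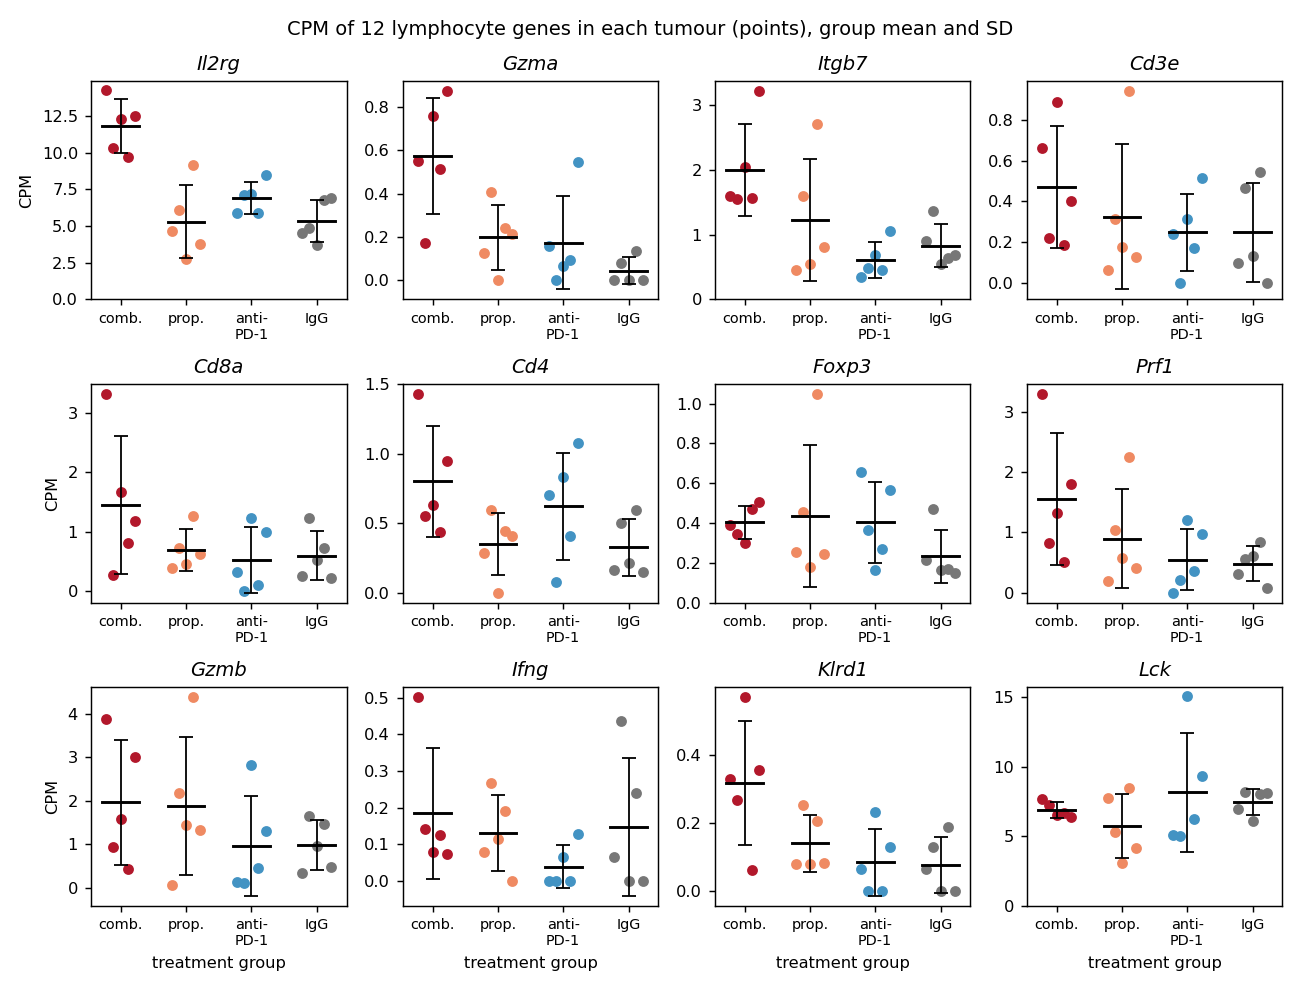
CPM (vertical axes, linear) of 12 genes in each tumour; points are tumours, the thick line is the group mean and the bar the SD (n = 5), with combination tumours (comb.) and propafenone tumours (prop.) left of anti-PD-1 and IgG tumours. The combination tumours stand clear of every other tumour for Il2rg alone among these panels, while for Lck all 4 groups overlap.

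The promoter windows of the pair of called genes, and of Lck and Cd3e as genes that did not pass, are printed to show the sequence around their starts. They come from RefSeq on GRCm38.p6, run from 250 bases before to 50 bases after the annotated start, and were found for 25 of the 38 genes. Capitals mark matches, on either strand, to 4 sets of letters. For ETS factors the letters searched were AGGAAG. For RUNX factors, which act in killer cell genes, they were TGTGGT. For T-box factors such as Eomes and T-bet they were GGTGTG. The TATA box was searched as TATAAA. Lck has 2 annotated starts, and both windows are given.

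Il2rg, chrX:101268206-101268505, minus strand: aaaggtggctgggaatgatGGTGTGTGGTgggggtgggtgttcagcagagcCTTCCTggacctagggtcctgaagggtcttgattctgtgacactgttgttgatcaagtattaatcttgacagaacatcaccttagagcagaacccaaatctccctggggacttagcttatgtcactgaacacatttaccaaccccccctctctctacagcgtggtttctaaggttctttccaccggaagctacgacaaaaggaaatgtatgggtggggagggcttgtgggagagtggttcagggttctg
Gzma, chr13:113100932-113101231, minus strand: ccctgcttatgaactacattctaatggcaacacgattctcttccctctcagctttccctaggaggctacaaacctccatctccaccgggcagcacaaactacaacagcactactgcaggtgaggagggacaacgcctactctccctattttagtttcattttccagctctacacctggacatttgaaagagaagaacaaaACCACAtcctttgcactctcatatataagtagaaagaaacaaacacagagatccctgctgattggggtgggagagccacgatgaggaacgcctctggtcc
Lck, upstream start, chr4:129573592-129573891, minus strand: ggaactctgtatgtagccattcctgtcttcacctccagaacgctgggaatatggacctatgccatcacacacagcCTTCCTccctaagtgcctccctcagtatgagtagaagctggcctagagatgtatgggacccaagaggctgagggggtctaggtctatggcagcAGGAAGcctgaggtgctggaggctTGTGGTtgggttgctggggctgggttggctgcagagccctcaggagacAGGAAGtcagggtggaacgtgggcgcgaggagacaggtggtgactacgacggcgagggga
Lck, downstream start, chr4:129558323-129558622, minus strand: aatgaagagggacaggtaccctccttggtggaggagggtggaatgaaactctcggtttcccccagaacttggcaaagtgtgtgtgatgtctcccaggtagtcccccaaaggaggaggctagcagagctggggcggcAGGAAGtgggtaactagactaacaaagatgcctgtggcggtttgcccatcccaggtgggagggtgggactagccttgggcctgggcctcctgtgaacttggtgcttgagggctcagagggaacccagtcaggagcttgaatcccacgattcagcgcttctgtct
Cd3e, chr9:45009562-45009861, minus strand: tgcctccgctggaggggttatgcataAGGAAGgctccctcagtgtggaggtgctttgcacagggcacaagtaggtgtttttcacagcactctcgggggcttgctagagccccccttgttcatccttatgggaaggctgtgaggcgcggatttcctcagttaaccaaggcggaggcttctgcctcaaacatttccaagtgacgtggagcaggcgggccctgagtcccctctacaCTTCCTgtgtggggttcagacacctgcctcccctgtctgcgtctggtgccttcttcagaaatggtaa

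The Il2rg window holds 1 match each to the ETS, RUNX and T-box letters, and the T-box and RUNX matches overlap. The Gzma window holds 1 RUNX match and none of the other letters. The upstream Lck window holds 3 ETS matches and 1 RUNX match, the downstream one 1 ETS match, and the Cd3e window 2 ETS matches. Over the 25 genes with a window, 15 held the ETS letters, 11 the RUNX letters, 7 the T-box letters and 2 the TATA letters in at least 1 window. Some genes have several windows, which raises these counts. By single window, 17 of 30 held the ETS letters, 12 the RUNX letters, 8 the T-box letters and 2 the TATA letters. Of all 32851 windows in the table, 35.4% held the ETS letters, 16.8% the RUNX letters, 19% the T-box letters and 13.6% the TATA letters. A match is a description of letters and not a bound site.

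Among the 7 chains of the T cell receptor and CD3 complex, all were higher in combination tumours than in IgG tumours and none passed the test, with a median log2 fold change of 0.91. Trac, the constant region of the receptor alpha chain, had 1.84, 0.426, 1.16, 0.798 and 0.875 CPM in combination tumours and 0.115, 0.807, 0.0996, 0.477 and 0.295 CPM in IgG tumours. The 2 groups overlap through IgG tumours 2 and 4, and the log2 fold change was 1.5 ± 0.71 (SE; adjusted p = 0.203 by edgeR). Cd3e had 0.659, 0.221, 0.887, 0.188 and 0.401 CPM in combination tumours and 0.0981, 0.468, 0.133, 0.546 and 0 CPM in IgG tumours. Combination tumours 1 and 3 lay above every IgG tumour and the other 3 within the IgG range (log2 fold change 0.91 ± 0.87, SE; adjusted p = 0.549 by edgeR). Cd3g, another CD3 chain, had a log2 fold change of 2.02 ± 0.98 (SE), Trbc1 1.76 ± 0.84, Trbc2 0.81 ± 0.72, Cd247, the zeta chain, 0.69 ± 0.55, and Cd3d 0.50 ± 0.82. Trbc1 and Trbc2 are near-identical beta constant regions, and 56.4% of the exon bases of Cd247 lie under Pou2f1 on the opposite strand, so the split of their reads is uncertain. On GRCm38, Cd3g, Cd3d and Cd3e lie side by side on chromosome 9, where the starts of Cd3g and Cd3d are 1355 bases apart, and Trbc1 and Trbc2 are 6.8 kb apart on chromosome 6.

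The 6 co-receptors and adhesion receptors were all higher, with a median log2 fold change of 1.25, and none passed. Cd8a, the alpha chain of the co-receptor of cytotoxic T cells, had 3.31, 0.268, 1.66, 0.814 and 1.17 CPM in combination tumours and 0.262, 1.23, 0.531, 0.716 and 0.221 CPM in IgG tumours. Combination tumour 1 was the highest of all 20 and combination tumour 2 was among the low ones, so the groups overlap (log2 fold change 1.28 ± 0.77, SE; adjusted p = 0.321 by edgeR). Cd4, the co-receptor of helper and regulatory T cells, had 1.43, 0.552, 0.634, 0.438 and 0.949 CPM in combination tumours and 0.164, 0.5, 0.216, 0.597 and 0.147 CPM in IgG tumours. Its log2 fold change was 1.29 ± 0.68 (SE; adjusted p = 0.258 by edgeR), close in size to that of Cd8a. Cd8b1, the CD8 beta chain, had a log2 fold change of 1.5 ± 1.05, Cd6 1.22 ± 0.84, Cd2 0.95 ± 0.48 and Cd5, a brake on receptor signalling, 0.44 ± 0.93. The ratio of Cd8a to Cd4 in TPM ran from 0.574 to 3.21 in combination tumours and from 1.23 to 2.62 in IgG tumours, and these ranges overlap.

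None of the 5 proximal signalling genes passed. Lck had 7.69, 7.21, 6.5, 6.63 and 6.39 CPM in combination tumours and 6.92, 8.15, 6.07, 8 and 8.07 CPM in IgG tumours, a log2 fold change of -0.11 ± 0.28 (SE). Over all groups Lck ran from 3.04 CPM in a propafenone tumour to 15.1 CPM in an anti-PD-1 tumour. Over 20 tumours the coefficient of variation of its TPM was 28.6%, the lowest of the 38, against 46.4% for Il2rg and 83.2% for Cd3e. Lck had 187 to 907 counts per tumour and Cd3e 0 to 59, so counting error weighs more on Cd3e. The TPM of Lck was 8.51 to 77.8 times that of Zap70 in the 19 tumours where Zap70 was above 0. Zap70, the kinase that follows Lck, had 0.785, 0.568, 0.475, 0.329 and 0.445 CPM in combination tumours and 0.278, 0.274, 0.133, 0.426 and 0.258 CPM in IgG tumours. In 24 of the 25 pairings the combination tumour was higher than the IgG tumour, and the log2 fold change was 0.92 ± 0.60 (SE; adjusted p = 0.363 by edgeR). Skap1, an adaptor for T cell adhesion, had 0.204, 0.189, 0.238, 0.188 and 0.445 CPM in combination tumours and 0.0981, 0.113, 0.0664, 0.136 and 0.147 CPM in IgG tumours. Its groups do not overlap, yet its log2 fold change of 1.16 ± 0.77 (SE) did not pass (adjusted p = 0.369 by edgeR). Lat, the adaptor that Zap70 phosphorylates, had a log2 fold change of 0.27 ± 0.44 (SE). Ptprcap, a partner of the phosphatase CD45, did not pass the filter on low counts, with at most 0.191 CPM in any tumour, and 76.0% of its exon bases lie under Rps6kb2 on the opposite strand.

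Of the 8 receptors for costimulation, cytokines and homing, all were higher in combination tumours, with a median log2 fold change of 1.17, and Il2rg alone passed. Itgb7, the integrin beta chain used for homing to mucosa, had 1.6, 1.55, 2.04, 1.56 and 3.22 CPM in combination tumours and 0.9, 1.37, 0.548, 0.631 and 0.682 CPM in IgG tumours. Its groups do not overlap, and its log2 fold change of 1.27 ± 0.43 (SE) missed the threshold (adjusted p = 0.0858 by edgeR). Il2ra, the high-affinity interleukin-2 receptor chain of regulatory and activated T cells, had 0.502, 0.394, 0.475, 0.391 and 0.386 CPM in combination tumours and 0.213, 0.274, 0.183, 0.119 and 0.147 CPM in IgG tumours. Its groups do not overlap either (log2 fold change 1.19 ± 0.61, SE; adjusted p = 0.247 by edgeR). In all, 5 members had every combination tumour above every IgG tumour (Il2rg, Gzma, Itgb7, Il2ra and Skap1), beside 4.72% of all genes tested. Il2rb, the chain shared by the receptors of interleukins 2 and 15, ranged from 1.14 to 5.98 CPM in combination tumours and from 0.497 to 2.13 CPM in IgG tumours, a log2 fold change of 1.32 ± 0.64 (SE). Log2 fold changes were 1.26 ± 1.01 for Icos and 0.88 ± 0.58 for Cd28, which deliver costimulation, 0.78 ± 0.41 for Il7r, the receptor of naive and memory T cells, and 0.75 ± 0.73 for Cd27.

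The 6 cytotoxic effectors were all higher, with a median log2 fold change of 1.27 in combination tumours against IgG tumours, and Gzma alone passed. Prf1, perforin, had 3.3, 0.82, 1.32, 0.516 and 1.8 CPM in combination tumours and 0.311, 0.565, 0.614, 0.835 and 0.0737 CPM in IgG tumours. Its ranges overlap, with 21 of 25 pairings higher in the combination tumour (log2 fold change 1.68 ± 0.81, SE; adjusted p = 0.21 by edgeR). Gzmb, the granzyme most tied to CD8 killing, had 3.88, 0.931, 1.58, 0.438 and 3 CPM in combination tumours and 0.344, 1.65, 0.946, 1.47 and 0.479 CPM in IgG tumours, a log2 fold change of 1.01 ± 0.86 (SE; adjusted p = 0.497 by edgeR). Combination tumour 4 had less Gzmb than 4 of the 5 IgG tumours. Ifng, the cytokine interferon gamma, had 0.502, 0.142, 0.0792, 0.125 and 0.0742 CPM in combination tumours and 0.0654, 0.436, 0, 0.239 and 0 CPM in IgG tumours. Its log2 fold change of 0.31 ± 1.03 (SE; adjusted p = 0.889 by edgeR) turned to -0.49 without combination tumour 1. Nkg7 had a log2 fold change of 0.68 ± 0.83 (SE), which was -0.02 without combination tumour 1, and Gzmk 1.53 ± 1.18 (SE).

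Of the NK cell receptors, Ncr1 and Klrd1 gave few reads, while Klrk1 had counts similar to those of Cd3e. Klrd1, the CD94 partner of NKG2 receptors on NK cells and activated CD8 T cells, had 0.33, 0.268, 0.57, 0.0626 and 0.356 CPM in combination tumours and 0.0654, 0.129, 0, 0.188 and 0 CPM in IgG tumours. Its groups overlap through combination tumour 4 (log2 fold change 2.02 ± 0.91, SE; adjusted p = 0.184 by edgeR). Klrk1, which encodes the activating receptor NKG2D, had a log2 fold change of 1.07 ± 0.66 (SE). Its summed counts were 200 in combination tumours and 88 in IgG tumours, beside 151 and 75 for Cd3e. Ncr1 did not pass the filter on low counts: it was above 0 in combination tumours 1 and 3, in anti-PD-1 tumours 1 to 4 and in IgG tumour 2, with at most 0.126 CPM, and at 0 in all 5 propafenone tumours. The NK lineage marker among these genes was thus at or near 0 in each group.

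The 3 lineage transcription factors were higher without passing. Eomes, a T-box factor of killer cells, had 1.07, 0.631, 0.84, 0.219 and 0.846 CPM in combination tumours and 0.327, 0.42, 0.133, 0.29 and 0 CPM in IgG tumours (log2 fold change 1.61 ± 0.74, SE; adjusted p = 0.192 by edgeR). Only combination tumour 4 lay within the IgG range. Tbx21, or T-bet, of Th1 and killer cells, was at 0 in 1 combination tumour and 3 IgG tumours (log2 fold change 0.98 ± 1.09, SE). Foxp3, which defines regulatory T cells, had 0.392, 0.347, 0.301, 0.469 and 0.504 CPM in combination tumours and 0.213, 0.468, 0.166, 0.171 and 0.147 CPM in IgG tumours (log2 fold change 0.78 ± 0.50, SE; adjusted p = 0.353 by edgeR). IgG tumour 2 reached the combination range. In the annotation, 18.6% of the Foxp3 exon bases are shared with Flicr on the same strand.

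**Figure D3:**
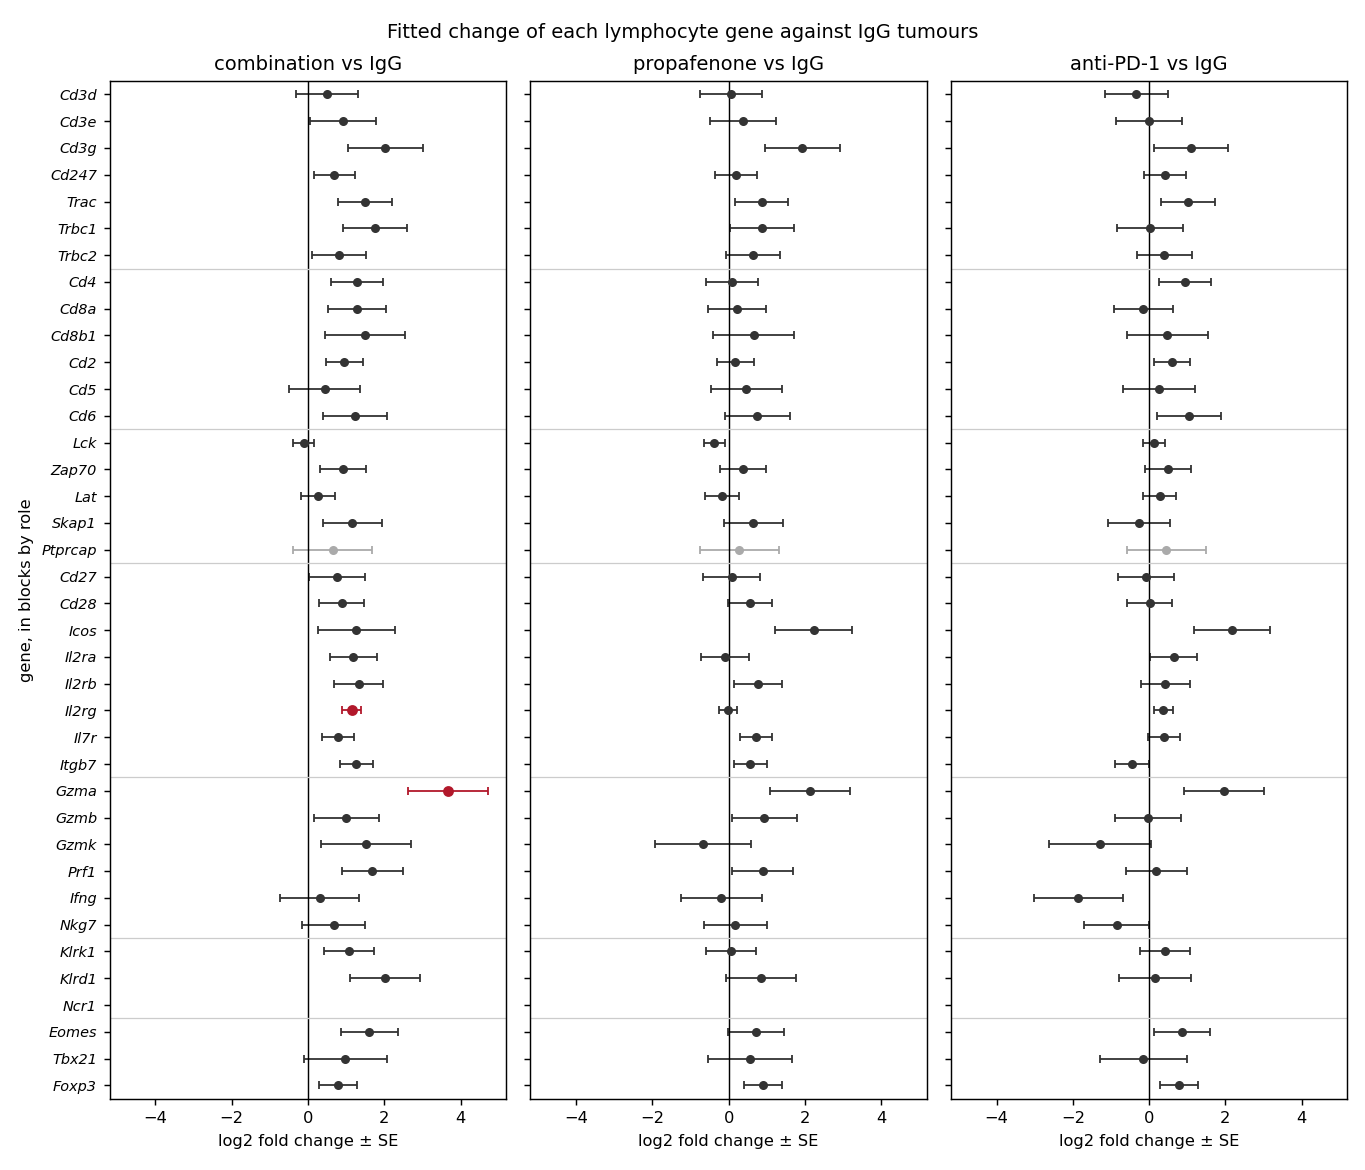
Log2 fold change against IgG tumours (horizontal axes, with SE bars) of each gene in combination, propafenone and anti-PD-1 tumours, from left to right; red marks genes called at an adjusted p under 0.05, grey the filtered Ptprcap, and Ncr1, which failed the filter and was at 0 in 13 of 20 tumours, is not drawn. In the left panel Il2rg and Gzma are called and only Lck lies below 0; no gene is called in the other 2 panels.

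Neither single treatment gave a call among these genes against IgG, and each shares its IgG tumours with the combination contrast. In propafenone tumours 0 of 36 members passed edgeR's test and 1 had an unadjusted p under 0.05, beside 0% and 4.75% of all genes tested (1.83% as higher). DESeq2 and limma also called none of the members. Of the 36, 30 were higher, with a median log2 fold change of 0.56, which was -0.01 without propafenone tumour 4, 0.36 without IgG tumour 1 and 0.35 without IgG tumour 5. In anti-PD-1 tumours 0 of 36 passed and 1 had an unadjusted p under 0.05, beside 0% and 7.58% of all genes tested (4.01% as higher), and DESeq2 and limma called none. Of these 36, 26 were higher, with a median log2 fold change of 0.32, which was 0.02 without anti-PD-1 tumour 3, 0.08 without anti-PD-1 tumour 5, 0.16 without IgG tumour 1 and 0.53 without IgG tumour 4. No member had all 5 tumours of a single treatment above all 5 IgG tumours, beside 0.529% of all genes for propafenone and 0.454% for anti-PD-1.

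The member with an unadjusted p under 0.05 was Icos in both single treatments. It encodes an inducible costimulatory receptor of activated and follicular helper T cells. Icos had 0, 0.582, 0.357, 0.51 and 0.0978 CPM in propafenone tumours, 0.623, 0.0768, 0.349, 0.189 and 0.242 CPM in anti-PD-1 tumours, 0.298, 0.11, 0, 0.0939 and 0.282 CPM in combination tumours and 0, 0.113, 0, 0.136 and 0.0737 CPM in IgG tumours. The log2 fold change was 2.23 ± 1.0 (SE; adjusted p = 0.913 by edgeR) in propafenone tumours and 2.17 ± 1.0 (SE; adjusted p = 0.64 by edgeR) in anti-PD-1 tumours, and every pair of groups overlaps. Of the 6 cytotoxic effectors 4 were lower and 2 higher in anti-PD-1 tumours than in IgG tumours, none passing, beside 49.7% of all genes higher. Log2 fold changes of the lower ones were -1.86 for Ifng, -1.30 for Gzmk, -0.85 for Nkg7 and -0.03 for Gzmb. The higher ones were Gzma, with a mean of 0.174 CPM against 0.0434 CPM, and Prf1, with 0.548 CPM against 0.48 CPM. Ifng was at 0 in 3 anti-PD-1 tumours and 2 IgG tumours. In propafenone tumours the largest log2 fold changes after Icos were 2.13 ± 1.05 for Gzma and 1.93 for Cd3g, whose highest tumour was propafenone 4.

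Against its component treatments the combination called 1 member. Against propafenone tumours Il2rg was 1.16 ± 0.25 (SE) higher on the log2 scale (adjusted p = 0.0261 by edgeR), the 1 call among 36, beside 3.88% of all genes tested in either direction and 1.67% as higher. This call was lost without combination tumour 1, 3 or 5 and without propafenone tumour 3 or 5. Of the 36 members, 33 were higher than in propafenone tumours, with a median log2 fold change of 0.53, which was 0.32 without combination tumour 1 and 1.06 without propafenone tumour 4. Il2ra and Il2rg had every combination tumour above every propafenone tumour, beside 3.65% of all genes. At an unadjusted p under 0.05 there were 2 members, both higher, beside 23.2% of all genes in either direction and 10.2% as higher. Il2ra had a log2 fold change of 1.28 ± 0.61 (SE; adjusted p = 0.212 by edgeR). Against anti-PD-1 tumours 0 of 36 members passed edgeR's test and 3 had an unadjusted p under 0.05, beside 0% and 9.78% of all genes tested (3.62% as higher), and DESeq2 and limma called none. Of these, Il2rg had a log2 fold change of 0.77 ± 0.25 and Itgb7 1.72 ± 0.44 (SE; adjusted p = 0.445 for each by edgeR). Both had all 5 combination tumours above all 5 anti-PD-1 tumours, beside 1.15% of all genes. Gzmk, the third, had a log2 fold change of 2.82 ± 1.29 (SE; adjusted p = 0.49 by edgeR) and was at 0 in 4 of 5 anti-PD-1 tumours. The median over the 36 was 0.84, with 32 higher, and was 0.52 without combination tumour 1.

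The interaction term measures how far the combination departs, in log2 units, from adding up both single effects. Under edgeR's test 0 of 36 members passed and 2 had an unadjusted p under 0.05, beside 0% and 3.04% of all genes tested (1.3% as higher), and DESeq2 and limma called none. Il2rg had an interaction of 0.79 ± 0.35 (SE; adjusted p = 0.99 by edgeR), with single effects of -0.01 for propafenone and 0.37 for anti-PD-1. Icos had an interaction of -3.14 ± 1.37 (SE; adjusted p = 0.99 by edgeR). The median over the 36 was 0.29, and ran from 0.05, without combination tumour 1 or anti-PD-1 tumour 2, to 0.84, without propafenone tumour 4, so neither an excess over additivity nor its absence was shown for these genes.

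Tumours within a group differed widely. With each member's mean over 20 tumours removed, the median over the 36 tested members was highest in combination tumour 1 (1.64 on the log2 scale), then in propafenone tumour 4 (1.32) and combination tumours 5 (1.16) and 3 (1.02). It was lowest in anti-PD-1 tumour 2 (-1.70), then in IgG tumours 1 (-0.99), 5 (-0.84) and 3 (-0.82). Combination tumour 1 had the highest CPM of all 20 tumours for 17 of the 38 genes, propafenone tumour 4 for 8 and combination tumour 5 for 7. IgG tumours fell into high ones (2 and 4, at 0.52 and 0.43) and low ones (1, 3 and 5), and combination tumours 2 and 4 (0.1 and 0.16) lay below both of the high IgG tumours. The summed CPM of the 38 genes ran from 29.4 to 66.1 in combination tumours, 15.8 to 54.7 in propafenone tumours, 16.2 to 45.4 in anti-PD-1 tumours and 17.1 to 32.4 in IgG tumours. Lck and Il2rg weigh heavily on these sums: they averaged 7.44 and 5.35 CPM in IgG tumours, where the mean sum was 24 CPM. Without Il2rg, Lck and Itgb7 the sum of the 35 others ran from 11.6 to 42.4 CPM in combination tumours and 5.6 to 34.3 CPM in propafenone tumours. It ran from 3.65 to 22.5 CPM in anti-PD-1 tumours and 5.22 to 18 CPM in IgG tumours.

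**Figure D4:**
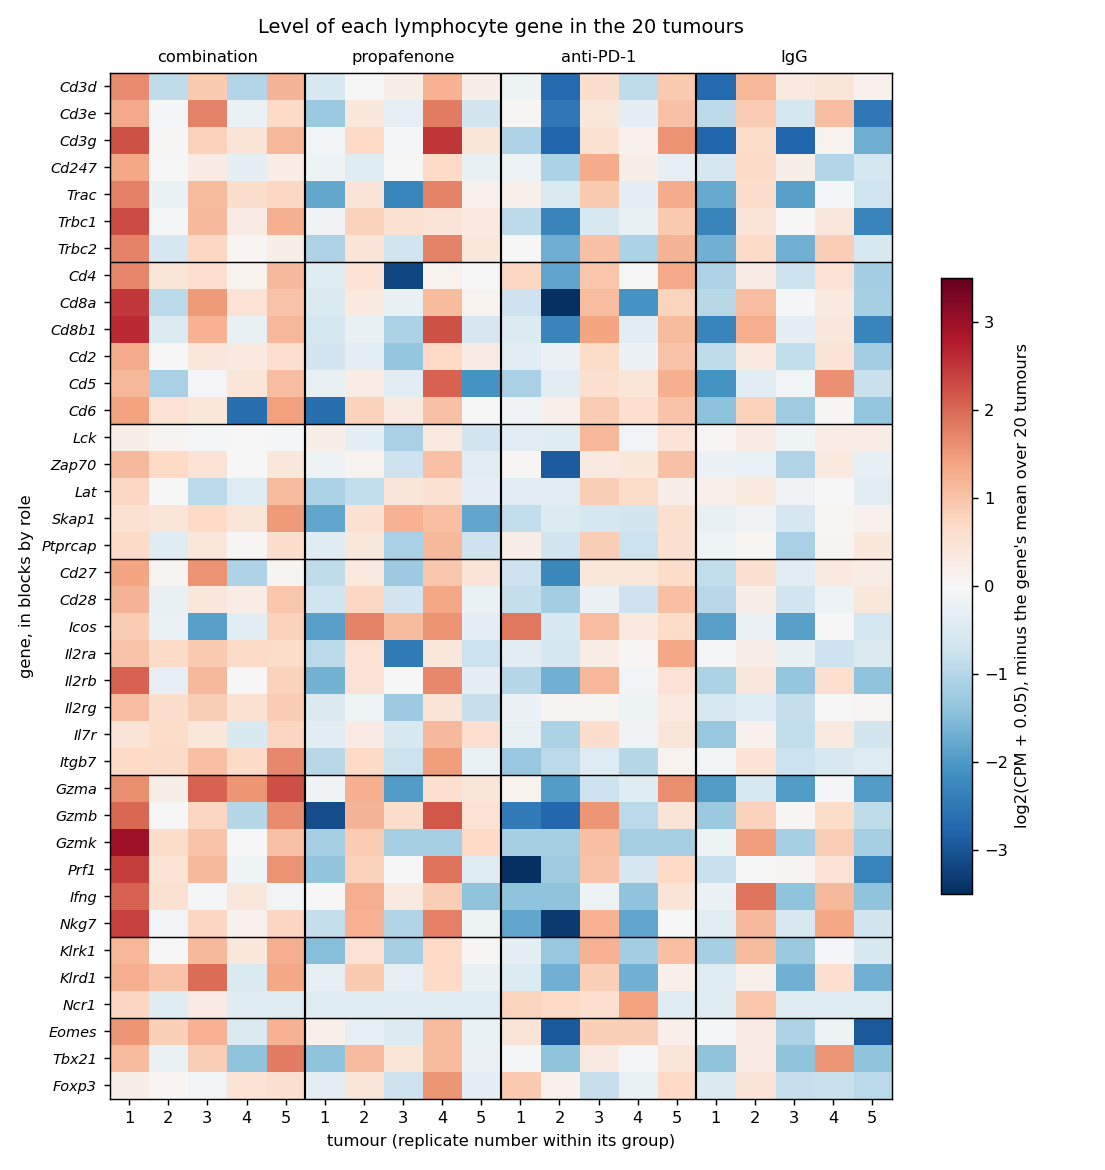
Rows are the 38 genes in blocks by role and columns the 20 tumours; colour is log2(CPM + 0.05) minus the gene's mean over all tumours, red above and blue below. Combination tumour 1 and propafenone tumour 4 are red over most rows, and anti-PD-1 tumour 2 is blue over most. The Lck row runs from 3.04 CPM in a propafenone tumour to 15.1 CPM in an anti-PD-1 tumour.

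Within groups, Cd8a and Gzmb followed Cd3e. Correlations of log2 CPM with Cd3e were computed over 20 tumours after group means were removed, with permutation within groups and adjustment over 14 partner genes. Cd8a had a Pearson r of 0.805 (adjusted permutation p = 0.00014, from the smallest p that 100000 permutations can give) and a Spearman rho of 0.845 (adjusted permutation p = 0.00014). Gzmb had an r of 0.695 (adjusted permutation p = 0.00469) and a rho of 0.731 (adjusted permutation p = 0.00289). Both held without the 2 tumours farthest from the median of Cd3e, with an r of 0.716 for Cd8a and 0.739 for Gzmb. Cd4 had an r of 0.579 (adjusted permutation p = 0.0566) and a rho of 0.717 (adjusted permutation p = 0.00399), and its r was 0.417 without the 2 farthest tumours (adjusted permutation p = 0.382) and 0.602 over all 20 on log2(TPM + 1) (adjusted permutation p = 0.0238). Prf1 had an r of 0.553 (adjusted permutation p = 0.107) and a rho of 0.749 (adjusted permutation p = 0.00289), and anti-PD-1 tumour 1, at 0 CPM, lay apart.

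On log2 CPM over all 20 tumours, other partners passed neither by r nor by rho, apart from Acta1 by rho. Foxp3 had an r of 0.393 and a rho of 0.379, Lck 0.341 and 0.411, and Ncr1 0.142 and 0.245. Il2rg had an r of 0.275 and a rho of 0.409 over all 20 tumours and an r of 0.736 without the 2 farthest (adjusted permutation p = 0.016), both of which had Cd3e at 0. On log2(TPM + 1) its r over all 20 tumours was 0.606 (adjusted permutation p = 0.0389), so whether it passed changed with the scale as well as with these tumours. Lyz2, a macrophage gene, had an r of 0.422 and a rho of 0.535, and an r of 0.765 without these 2 tumours (adjusted permutation p = 0.016) and 0.622 over all 20 on log2(TPM + 1) (adjusted permutation p = 0.0389). Acta1, a skeletal muscle actin, had an r of 0.643 (adjusted permutation p = 0.0701) and a rho of 0.585 (adjusted permutation p = 0.0437), and its r was 0.245 without them. The B cell gene Cd79a had an r of -0.23, Hbb-bs -0.468, the keratinocyte gene Krt5 0.158 and the pigment gene Pmel -0.178.

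**Figure D5:**
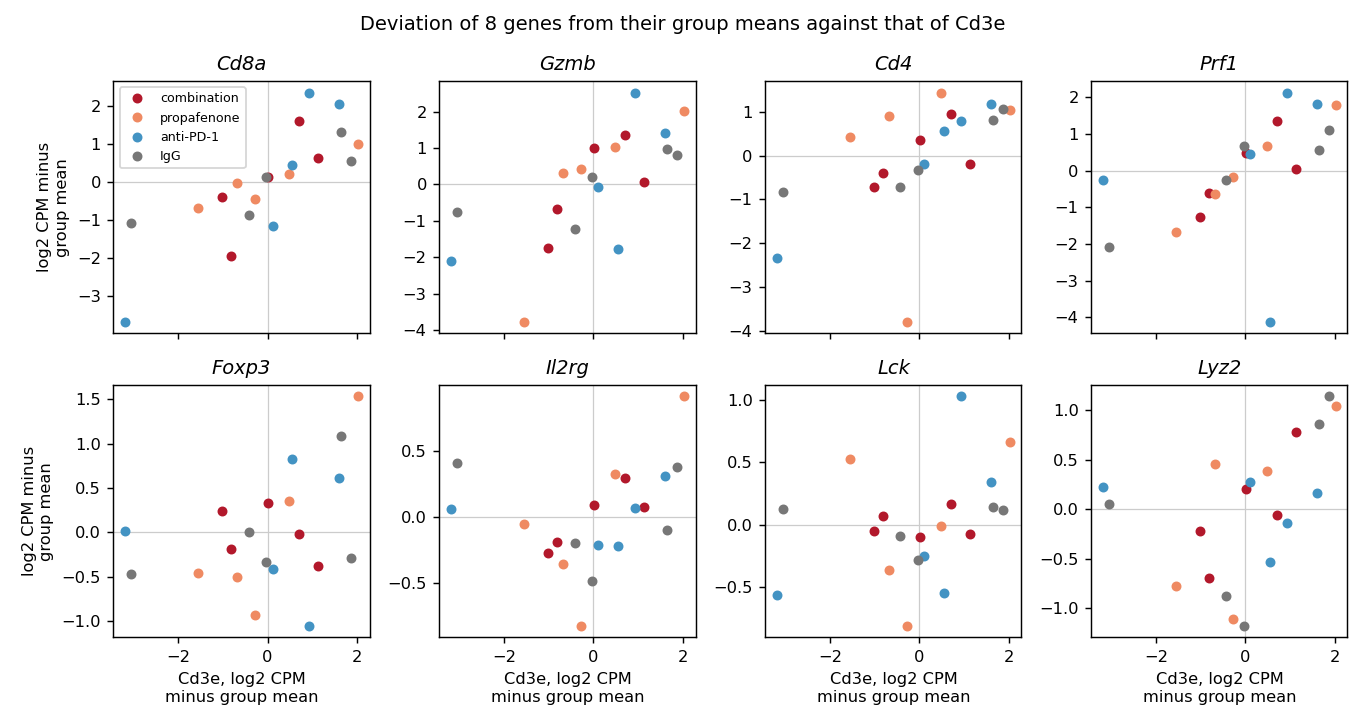
Each panel sets 1 gene (vertical axis) against Cd3e (horizontal axis), both as log2 CPM minus the mean of the tumour's group, with 1 point per tumour coloured by group. Cd8a and Gzmb climb with Cd3e (r of 0.805 and 0.695), Lck does not clearly do so (r of 0.341), and the 2 points at the far left are tumours with Cd3e at 0.

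Other genes of T cell receptor signalling, outside the 38, were given by a list of 30, of which 26 were tested. In combination tumours against IgG tumours 2 passed, both higher, and 20 of 26 were higher, with a median log2 fold change of 0.46. Of all genes tested in this contrast 48.2% were higher, 4.88% passed in either direction and 2.24% passed as higher. At an unadjusted p under 0.05 by edgeR, 10.1% were higher. These shares stand beside the counts of every list below in the same contrast. Vav1, an exchange factor downstream of the receptor and present in other blood cells, had a log2 fold change of 2.08 ± 0.54 (SE; adjusted p = 0.0344 by edgeR), with 3.51 ± 0.856 CPM in combination tumours and 0.827 ± 0.81 CPM in IgG tumours (SD, n = 5). Rasgrp1, which links the receptor to Ras, had a log2 fold change of 2.27 ± 0.60 (SE; adjusted p = 0.0377 by edgeR). Fyn, a kinase of many tissues, had a log2 fold change of -0.26 (adjusted p = 0.0859 by edgeR). Of 23 tested genes of T cell identity and homing 21 were higher and 1 passed. Lower values without a call were seen in the same list for Tcf7, with a mean of 20.8 CPM in combination tumours against 22.5 CPM in IgG tumours. Cxcr3, a chemokine receptor, was lower too, with 8.36 CPM against 10 CPM. Tcf7 is a factor of naive and stem-like T cells, yet both genes lay far above the T cell receptor chains. Trac averaged 1.02 CPM in combination tumours and 0.359 CPM in IgG tumours. Which cells gave the Tcf7 and Cxcr3 reads was not tested.

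Of 27 other cytotoxic and NK cell genes that were tested, 24 were higher in combination tumours than in IgG tumours and 2 passed. These were Tyrobp, an adaptor of NK and myeloid receptors (log2 fold change 1.67 ± 0.48, SE; adjusted p = 0.0487 by edgeR), and Serpinb6b, a protease inhibitor of the serpin family (1.13 ± 0.33, SE; adjusted p = 0.0498 by edgeR). Of 22 tested genes of the interferon gamma response 21 were higher, with a median log2 fold change of 0.54. Of these, 4 had an unadjusted p under 0.05, and the smallest adjusted p by edgeR was 0.101. In anti-PD-1 tumours 18 of these 22 genes were lower than in IgG tumours, none past the threshold, with a median of -0.31. Of all genes tested in that contrast 49.7% were higher, with a median of -0.001. Among 10 checkpoint receptors and ligands 9 were higher in combination tumours than in IgG tumours, and the costimulatory ligand Cd80 passed (1.37 ± 0.37, SE; adjusted p = 0.0388 by edgeR). Pdcd1, which encodes PD-1 itself, averaged 1.15 CPM in combination tumours, 0.583 CPM in propafenone tumours, 0.596 CPM in anti-PD-1 tumours and 0.444 CPM in IgG tumours.

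Markers of several other cell types also differed between combination and IgG tumours. Those of melanoma and melanocytes differed little: 6 of 7 were higher, with a median log2 fold change of 0.12 and none at an unadjusted p under 0.05. Their summed level was 17100 to 18600 CPM in combination tumours and 13400 to 18800 CPM in IgG tumours. All 12 macrophage and monocyte markers were higher in combination tumours, 8 passed, and their summed level was 212 to 476 CPM in combination tumours against 40 to 192 CPM in IgG tumours. Macrophages also carry Il2rg, and the part of this list in the Il2rg result was not tested. All 10 skeletal muscle markers were higher and 6 passed (37 to 516 CPM summed in combination tumours against 6.10 to 75.7 CPM in IgG tumours), as were all 8 fibroblast markers, of which 5 passed (537 to 1260 CPM against 142 to 523 CPM). All 6 red blood cell markers were lower and 1 passed (172 to 453 CPM summed in combination tumours against 290 to 11700 CPM in IgG tumours). All 8 keratinocyte markers were higher without passing, 7 of them at an unadjusted p under 0.05, with a median log2 fold change of 6.92 (5.19 to 44 CPM summed in combination tumours against 3.9 to 8.44 CPM in IgG tumours). All 6 adipocyte markers were higher without passing, 4 at an unadjusted p under 0.05, with a median of 2.85 (21.7 to 41.7 CPM summed against 15.5 to 32.6 CPM). Of 6 endothelial markers 5 were higher and 1 passed (399 to 487 CPM summed in combination tumours against 370 to 497 CPM in IgG tumours). Among the 5 tested of 10 B cell markers Ighm passed (log2 fold change 2.6, adjusted p = 0.0211 by edgeR), while Ms4a1 was at 0 in 19 tumours. Of 7 tested dendritic cell markers 6 were higher, and the smallest adjusted p by edgeR was 0.0707. Of 3 tested neutrophil markers 1 was higher, with a smallest adjusted p of 0.0895 by edgeR, and Ly6g was at 0 in 18 tumours. The part of muscle, fibroblasts, blood and the other cell types in the differences of the lymphocyte genes was not tested.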

How the data were processed

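RNA of 20 B16F10 tumours was sequenced with a SMARTER mRNA kit, per the labels' protocols. The authors deposited a table of expected counts (estimates, here rounded to whole numbers) and a table of TPM, which sums to 1000000 in each tumour; replicates were not pooled. Builds GRCm38 and mm10, and SAMtools 1.9, HISAT2 2.2.1 and FastQC as tools, are listed in the submitters' processing notes. The counting tool, annotation and strand setting are not given in the sources used here. Among low counts 4 and 8 are more frequent than their neighbours, so several counts may stand for 1 fragment.

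Tests across genes used edgeR 4.0.16 under R 4.3.3, with TMM scaling, the filterByExpr filter over 4 groups, a robust quasi-likelihood fit with 1 mean per group over 20 tumours (16 residual degrees of freedom, common biological coefficient of variation 0.252), and Benjamini-Hochberg adjustment over the 15875 genes kept, which hold 99.98% of counts. Genes failing the filter were fitted without it. SE was obtained as the size of the log2 change over the root of F. The test was checked on simulated data. Alternatives were DESeq2 1.42.0, limma 3.58.1 (voom, and log2 TPM with a pseudocount of 1 or 0.1), other scalings and filters, a replicate block and fits without single tumours. Lck and Il2rg as correlation partners and the fit without 5 Hbb-bs-rich tumours were added after the values were seen. Correlations used log2 CPM with a prior count of 1.

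All 38 genes could be named; from other lists, up to 3 genes per direction with the smallest p, with Pdcd1 named after its values were seen. Members and lists were chosen with earlier results of these data known. Positions come from GENCODE mouse release 21 (GRCm38), promoters from RefSeq. Within groups no tumour copied another: correlations over 40 pairs ran from 0.951 to 0.981. Pairs of tumours from different groups were not checked in this way. Values of some single genes of the comparison lists are not reported here.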

Additional observations from a re-analysis of the deposited data

Results flagged for a closer look

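For each of the 38 genes and 4 groups, 152 sets of 5 tumours in all, a tumour was marked when its gap to the nearest other exceeded 0.71 of the range of log2 CPM. This marked 12 sets. Chance marks about 1 in 20 only where values are normally spread, which low counts with many at 0 are not, so that rate does not carry over to these sets. In 8 of the 12 marked sets the marked tumour was at 0 CPM: Cd3d in IgG tumour 1, Cd4 in propafenone tumour 3, Cd6 in combination tumour 4 and in propafenone tumour 1, Ptprcap in IgG tumour 3, and Zap70, Eomes and Tbx21 in anti-PD-1 tumour 2, which had the lowest count total. In 4 sets the marked tumour was high: Cd8b1 at 1.1 CPM in propafenone tumour 4, Skap1 at 0.445 CPM in combination tumour 5, Gzmk at 0.183 CPM in anti-PD-1 tumour 3 and Ncr1 at 0.0807 CPM in IgG tumour 2.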

How the results depend on the processing

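In the combination against IgG, 2 members were called. The count was 1, Il2rg alone, without a filter, with a mean of at least 0.5 CPM as filter, with DESeq2 size factors in edgeR, with library totals as scaling, with the replicate block, and without the 5 tumours rich in Hbb-bs; it was 5 with limma on log2(TPM + 1), where Klrd1, Eomes and Itgb7 joined. DESeq2 called 3. Leaving out 1 tumour gave 0 to 2 calls, with 0 without combination tumour 5 or IgG tumour 3. Against propafenone the 1 call became 0 to 1, with 0 without combination tumours 1, 3 or 5 and propafenone tumours 3 or 5. The 4 other counts were 0 in every setting run. The median of members against IgG ran from 0.78 to 1.28 over the fits without 1 tumour and was 0.37 with limma on log2(TPM + 1), a scale that understates changes of low genes. That scale gave 0.22 against propafenone and 0.29 against anti-PD-1. Without 1 tumour these medians ran from 0.32 to 1.06 and from 0.52 to 1.09, and without the 5 tumours rich in Hbb-bs they were 1.04 and 0.57. The interaction median ran from 0.05 to 0.84 without 1 tumour, and moved by over 1.5 times without combination 1 or 5, propafenone 1, 3 or 4, anti-PD-1 1, 2, 3 or 5, or IgG 1, 2 or 4. Signs reversed without 1 tumour for Lat (-0.07 to 0.48, lowest without combination tumour 5), Ifng (-0.49 to 1.25, lowest without combination tumour 1, and -0.01 without IgG tumour 3) and Nkg7 (-0.02 to 1.07, lowest without combination tumour 1). The cause was not tested.

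Replicate numbers are not stated to pair tumours. The mean correlation over 30 pairs with the same number was -0.00762 (-0.385 to 0.336). Of 20 tumours, 7 correlated best with a tumour of their own number. How many would do so without pairing was not tested, so this check cannot show that pairing was absent. The replicate block took the count of calls to 1.

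Correlations with Cd3e passed with log2(TPM + 1) for Cd4 (0.602), Prf1 (0.779), Lyz2 (0.622) and Il2rg (0.606), and without the 2 farthest tumours for Prf1 (0.568), Lyz2 (0.765) and Il2rg (0.736). Signs reversed without these 2 tumours for Hbb-bs (0.181), Krt5 (-0.0768) and Pmel (0.527), and with log2(TPM + 1) for Krt5 (-0.00279) and Pmel (0.273). Depth limits members under about 0.05 CPM, or more if several counts stand for 1 fragment, where a count of 0 cannot be told from a few counts.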
